A study of Mus musculus with 44 samples.

Results

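The genes described here are the hepatic cytochrome P450 enzymes of the Cyp1a, Cyp2 and Cyp3a families, the UDP-glucuronosyltransferases (Ugt1a, Ugt2) and the cytosolic sulfotransferases (Sult), together with the sensors Nr1i2 (PXR), Nr1i3 (CAR) and Ahr and the P450 reductase Por. A gene was a member if the annotation of the array gave a probe set to its symbol alone, and the probe set with the highest mean stood for the gene. This gave 91 genes with 94 probe sets, of 22180 genes with a probe set of their own on the array. After the expression filter of the study, by which a group mean had to exceed 4 on the linear scale, 55 members remained among 18522 tested probe sets. The other 36 members did not reach it. They were Cyp1a1, the Cyp2b genes Cyp2b13, Cyp2b19 and Cyp2b23, Cyp2s1, Cyp2t4, the Cyp2c genes Cyp2c40, Cyp2c53-ps, Cyp2c65 and Cyp2c66, the Cyp2d genes Cyp2d11, Cyp2d12 and Cyp2d34, the Cyp2j genes Cyp2j8, Cyp2j11, Cyp2j12 and Cyp2j13, Cyp2w1, Cyp2ab1, the Cyp3a genes Cyp3a16, Cyp3a44 and Cyp3a57, and the sulfotransferases Sult1c1, Sult2a1 to Sult2a7, Sult2b1, Sult3a1, Sult3a2, Sult4a1, Sult6b1 and Sult6b2. Por and the single Ugt1a genes had no probe set of their own and were not analysed here, and 6 probe sets shared by several members were left out.

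P450 enzymes oxidise drugs, steroids, fatty acids and fat-soluble vitamins, and UDP-glucuronosyltransferases and sulfotransferases then couple the products to glucuronic acid or sulfate, which makes them soluble enough to leave the liver in bile or blood. PXR and CAR are nuclear receptors that sense foreign compounds and bile acids, pair with RXR and raise the transcription of such genes, with Cyp3a11 the typical PXR target and Cyp2b10 the typical CAR target of mouse liver. AHR is a ligand-activated factor of another family that drives Cyp1a1 and Cyp1a2. Forms of vitamin E are themselves shortened by P450-initiated oxidation and have activated human PXR in reporter cells, so the question put to these data was whether a high intake of vitamin E moved the PXR and CAR targets in the liver.

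Liver RNA of 44 male C57BL/6N mice aged 11 to 12 weeks was measured on Mouse Gene 2.1 ST arrays, 1 array per mouse. The groups were 12 exercised vitamin E-supplemented mice, 12 exercised control mice, 10 sedentary vitamin E-supplemented mice and 10 sedentary control mice. The supplemented diet, with α-tocopheryl acetate as its source, held 2000 IU of vitamin E per kg and also 100 mg of vitamin C per kg, against 149 IU of vitamin E per kg and no added vitamin C in the control diet, both given for 4 weeks on the same purified base, so the effects of the 2 vitamins cannot be told apart. Exercise was a single treadmill run of 60 min at 13 m/min on a slope of 14 degrees, and livers were taken right after its end. Sedentary mice stayed in their cages beside the treadmill without food for 60 min. All were anaesthetised with ketamine and xylazine before the liver was removed.

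Values are RMA log2 expression values, in which a difference of 1 is a doubling, and array medians ran from 1.53 to 1.669. The number of arrays, not a read depth, limits the precision. The hepatocyte markers were high in every mouse, with means of the 6 markers from 10.5 to 10.8, while adipocyte markers (3 of 3), B cell markers (2 of 2) and 2 of 3 pancreatic acinar markers were below the filter. In bulk liver, fewer cells of a type and less RNA per cell cannot be told apart. The animal numbers in the labels began with 24 for 23 mice and with 27 for 21 mice. Both series were spread over all groups, and 334 of 18522 probe sets but none of the 55 members differed between them at an adjusted p under 0.05. At an unadjusted p under 0.05, 5 of 55 members were higher and 4 lower in the series beginning with 27. Of all 18522 tested probe sets 1478 were higher and 1204 lower at this threshold.

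One library stood apart. Exercised control mouse 3 had the lowest value of its group for 34 of the 55 members, a median deviation from the group mean of -0.69 over the members, and the highest mean of 11 acute-phase genes of all mice, 11.2. Exercised control mouse 6 (10.9) and sedentary vitamin E-supplemented mouse 1 (10.5) also had high acute-phase means, with median member deviations of -0.20 and 0.18. The next mouse stood at 9.81. Whether the acute-phase state had a part in the member levels of these mice was not tested, and the results below are given with and without exercised control mouse 3 where it mattered.

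**Figure D1:**
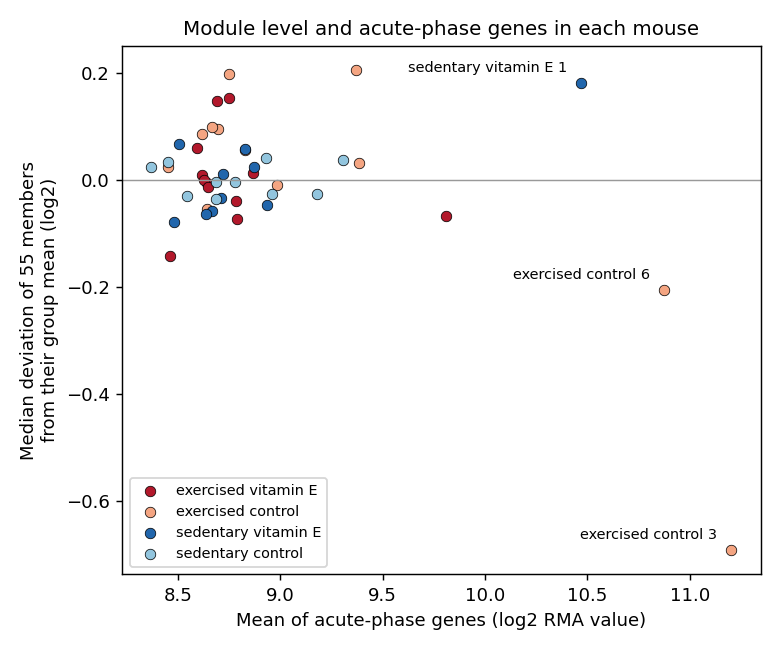
Median deviation of the 55 tested members from their group mean (log2, vertical axis) against the mean of 11 acute-phase genes (RMA log2 value, horizontal axis), 1 point per mouse, coloured by group. Exercised control mouse 3 lies alone at -0.69 and 11.2.

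No member passed the test for vitamin E at an adjusted p under 0.05 (limma), and neither did any of the 18522 probe sets, in exercised mice, in sedentary mice or over both states. At an unadjusted p under 0.05, the combined comparison over exercised and sedentary mice had 5 members higher and 1 lower of 55, against 2.21% of all tested probe sets higher and 2.48% lower. The 5 were the drug-inducible P450 genes Cyp3a11, Cyp2c29 and Cyp2c55, the UDP-glucuronosyltransferase Ugt2b37 and the sulfotransferase Sult1c2, and the 1 lower was the steroid hydroxylase Cyp2a4. The median log2 fold change was 0.03 over the members and 0.00 over all tested probe sets, with 37 of 55 members higher and a range from -0.53 (Cyp2b9) to 0.68 (Ugt2b37). Without exercised control mouse 3 the median of the members was 0.00 and 28 of 55 were higher. At an unadjusted p under 0.05, 6 members were then higher and 1 lower, against 2.05% and 2.53% of all tested probe sets.

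Among the sensors, the levels were close on both diets. Nr1i2, which encodes PXR, had values of 6.94, 7.28 and 7.67 in exercised vitamin E-supplemented mice (lowest, median and highest mouse, as in all triplets that follow), 6.80, 7.29 and 7.75 in exercised control mice, 6.95, 7.33 and 7.42 in sedentary vitamin E-supplemented mice and 6.71, 7.31 and 7.56 in sedentary control mice. The groups overlapped almost fully, and vitamin E changed the mean over both states by -0.01 (95% interval -0.15 to 0.14, unadjusted limma p = 0.92). Nr1i3, which encodes CAR, differed by 0.03 (95% interval -0.18 to 0.24, p = 0.782), and Ahr by -0.04 (95% interval -0.26 to 0.17, p = 0.685). The partner receptor Rxra, no member of the set, differed by -0.06 (p = 0.265).

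Cyp3a11, a main drug-oxidising enzyme of mouse liver and the typical PXR target, was somewhat higher on the vitamin E diet. It had values of 6.92, 7.52 and 7.96 in exercised vitamin E-supplemented mice against 7.24 as the median of exercised control mice, which ranged from 6.14 to 8.15. In sedentary mice it had 7.27, 7.56 and 8.00 on the vitamin E diet, against 6.77, 7.38 and 8.16 on the control diet. In both pairs the control mice spread more widely and reached both the lowest and the highest value. The difference was 0.28 over both states (95% interval 0.04 to 0.52, unadjusted p = 0.0253, adjusted p = 0.999 from limma), 0.33 in exercised mice (p = 0.0474) and 0.23 in sedentary mice (p = 0.209). Exercised control mouse 3 had the lowest value of all, and without it the difference in exercised mice was 0.24 (p = 0.127) and that over both states 0.23 (p = 0.0441). Exercised control mouse 6 had the next lowest value, 6.217. Without both mice Cyp3a11 was not higher at an unadjusted limma p under 0.05, in exercised mice or over both states. Within the number series, with all mice, the difference over both states was 0.30 in series 24 (p = 0.143) and 0.32 in series 27 (p = 0.00456). A pair of probe sets shared by Cyp3a11, Cyp3a41a, Cyp3a41b and Cyp3a44, left out of the member set, differed by 0.23 (p = 0.0594) and 0.21 (p = 0.0806).

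Cyp2c29, an inducible P450 that is abundant in mouse liver, followed the same direction, mainly in sedentary mice. Its values were 10.31, 10.53 and 10.97 in exercised vitamin E-supplemented mice and 9.92, 10.49 and 10.93 in exercised control mice. In sedentary mice they were 10.48, 10.66 and 10.87 on the vitamin E diet and 9.95, 10.51 and 10.79 on the control diet. Sedentary control mice 1, 3, 7 and 8 (10.278, 9.95, 10.472 and 9.985) lay under all sedentary supplemented mice. The difference was 0.16 over both states (95% interval 0.03 to 0.30, p = 0.0206), 0.24 in sedentary mice (p = 0.0219) and 0.09 in exercised mice (p = 0.342), with adjusted limma p-values of 0.943 or more. It was 0.23 in series 24 (p = 0.04) and 0.10 in series 27 (p = 0.331).

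Cyp2c55, an inducible P450 that oxidises arachidonic acid, showed the largest difference of the target list but a low signal. It had 1.47, 3.43 and 4.06 in exercised vitamin E-supplemented mice and 1.41, 2.85 and 4.04 in exercised control mice, and 2.24, 2.88 and 4.56 in sedentary vitamin E-supplemented mice against 0.96, 2.34 and 3.31 in sedentary control mice. The ranges covered each other for the most part. The difference was 0.52 over both states (95% interval 0.08 to 0.96, p = 0.021, adjusted p = 0.999), 0.74 in sedentary mice (p = 0.026) and 0.57 there without sedentary vitamin E-supplemented mouse 1, the highest (p = 0.0749). A second probe set of Cyp2c55 differed by 0.09 (p = 0.499).

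Cyp2b10, the typical CAR target, was not higher over both states. It passed the expression filter only through exercised control mice, with a linear group mean of 4.53. The filter therefore favoured a lower value on the vitamin E diet in exercised mice, and the difference over both states is no finding about this gene. Cyp2b10 had 1.33, 1.68 and 2.78 in exercised vitamin E-supplemented mice and 1.07, 1.61 and 3.45 in exercised control mice, and 1.05, 1.46 and 1.94 in sedentary vitamin E-supplemented mice against 1.25, 1.59 and 2.46 in sedentary control mice. In all groups the median mouse lay close to the medians of whole arrays, and the difference over both states was -0.11 (95% interval -0.43 to 0.21, p = 0.499). It was 0.10 in series 24 (p = 0.649) and -0.33 in series 27 (p = 0.183). Cyp2a5, a coumarin hydroxylase that CAR and PXR ligands also raise, differed by -0.08 (95% interval -0.35 to 0.18, p = 0.525), which was -0.16 without exercised control mouse 3 and -0.04 without sedentary control mouse 4.

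**Figure D2:**
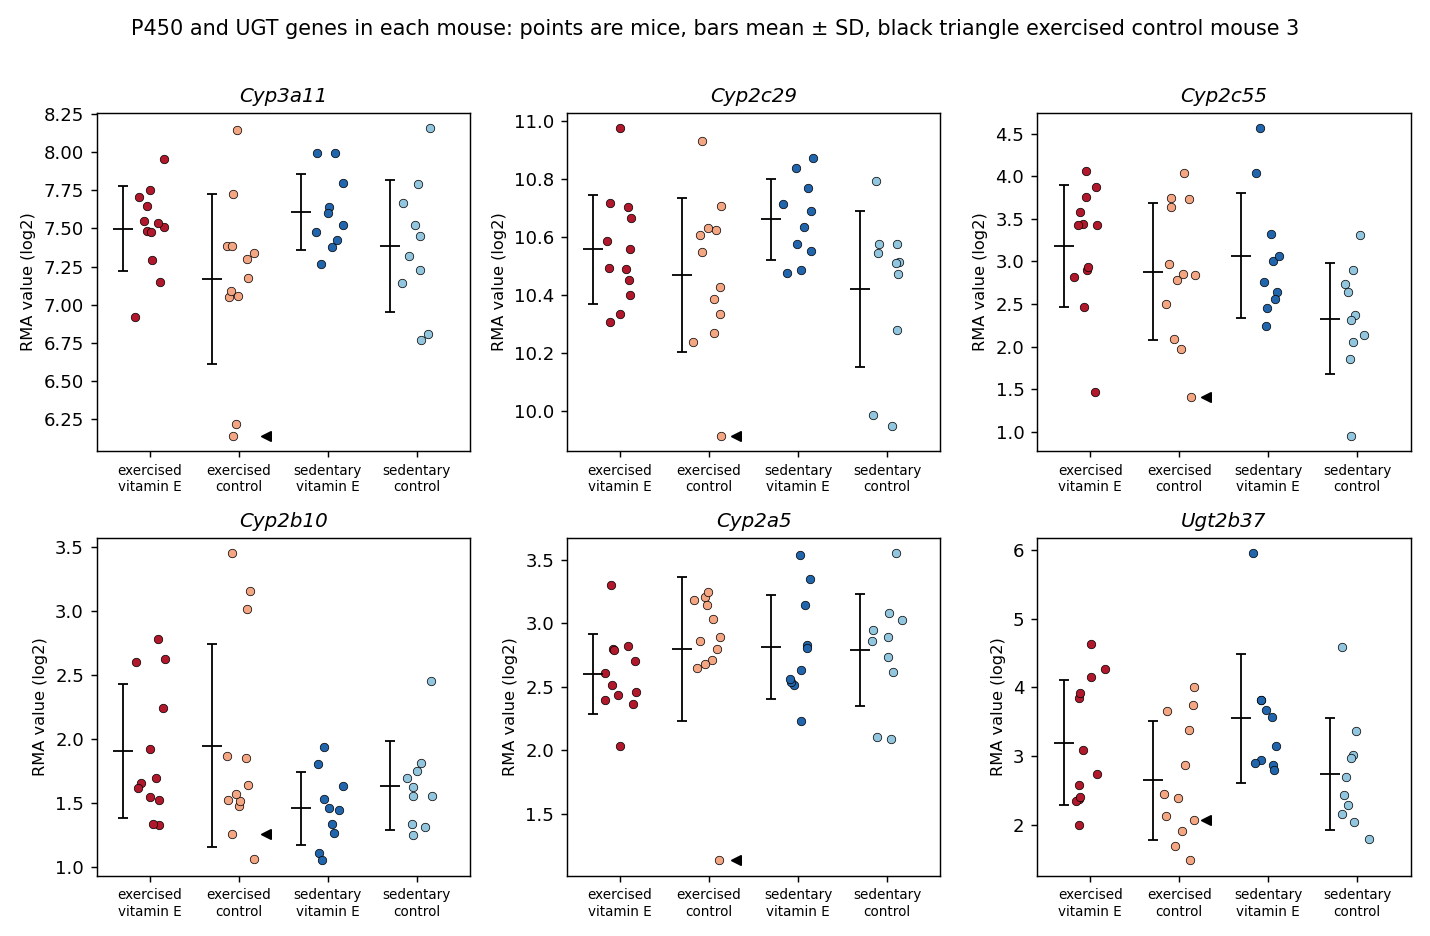
RMA log2 values of Cyp3a11, Cyp2c29, Cyp2c55, Cyp2b10, Cyp2a5 and Ugt2b37 in each of 44 mice (points), with group mean ± SD (bars) and exercised control mouse 3 marked by a black triangle. The supplemented and control groups overlap in every panel, and the marked mouse has the lowest Cyp3a11, Cyp2c29, Cyp2c55 and Cyp2a5 value of its group.

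The promoters of 3 of these targets are shown because they are the genes on which PXR and CAR are best known to act. RefSeq promoter windows (GRCm38.p6, 300 bases, of which 50 lie after the start of the transcript) were found for 76 of 91 members, 47 of them tested. Capitals mark a hexamer of the kind that nuclear receptors bind, on either strand, spelled AGGTCA (the consensus), AGTTCA (a common form in PXR elements), GGGTCA (a further form) or, as the last form searched, GGTTCA. The windows lie at chr5:145879805-145880104 on the minus strand for Cyp3a11, chr19:39286835-39287134 on the plus strand for Cyp2c29 and chr7:25897408-25897707 on the plus strand for Cyp2b10, each written from the upstream end of its own gene.
Cyp3a11: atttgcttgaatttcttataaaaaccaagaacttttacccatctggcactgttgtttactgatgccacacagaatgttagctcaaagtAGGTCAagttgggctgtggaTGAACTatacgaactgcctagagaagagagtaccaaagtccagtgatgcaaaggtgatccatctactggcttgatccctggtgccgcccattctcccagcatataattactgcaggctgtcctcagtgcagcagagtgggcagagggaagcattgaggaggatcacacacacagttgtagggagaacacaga
Cyp2c29: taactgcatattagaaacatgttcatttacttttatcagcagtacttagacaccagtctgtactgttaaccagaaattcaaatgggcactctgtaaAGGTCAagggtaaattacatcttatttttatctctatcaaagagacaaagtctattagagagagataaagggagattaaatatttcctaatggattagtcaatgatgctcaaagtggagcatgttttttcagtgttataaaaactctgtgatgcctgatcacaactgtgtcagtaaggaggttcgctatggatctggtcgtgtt
Cyp2b10: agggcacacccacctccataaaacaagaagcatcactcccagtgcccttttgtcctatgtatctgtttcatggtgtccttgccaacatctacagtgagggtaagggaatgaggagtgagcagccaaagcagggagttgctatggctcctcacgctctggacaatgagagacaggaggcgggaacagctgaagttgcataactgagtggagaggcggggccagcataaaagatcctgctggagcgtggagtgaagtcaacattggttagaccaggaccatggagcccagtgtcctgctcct
The Cyp3a11 window holds 2 such hexamers on opposite strands, the Cyp2c29 window 1 and the Cyp2b10 window 0. At least 1 hexamer was present in 56.1% of the 82 windows of members and in 43.7% of all 32851 windows. Paired hexamers in the arrangements that PXR and CAR are known to bind, as direct repeats 3 or 4 bases apart or an everted repeat 6 bases apart, were in 0 of the 82 windows and in 0.0396%, 0.0822% and 0.0304% of all windows. The AHR motif TNGCGTG was in 2.44% of the windows of members, those of Cyp2c68 and Sult1d1, and in 5.07% of all. Known enhancers of these genes lie farther upstream and were not searched here.

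Of 15 genes listed as PXR or CAR targets of these families, 12 were members and 11 were tested. Among them, Cyp2b10 passed the filter only through exercised control mice, which favoured a lower value on the vitamin E diet in exercised mice. Of the 11 tested, 9 were higher on the vitamin E diet over both states, against 51% of all tested probe sets, with a median of 0.07. At an unadjusted p under 0.05, 3 were higher (Cyp3a11, Cyp2c29 and Cyp2c55) and 0 lower, against 2.21% and 2.48% of all tested probe sets. In sedentary mice 10 of 11 were higher, against 56% of all tested probe sets, with a median of 0.13, and in exercised mice 6 of 11, against 45.1%, with a median of 0.03. The counts that include exercised mice rested on few mice. Without exercised control mouse 3 it was 7 of 11 over both states with a median of 0.02, and without exercised control mice 3 and 6 it was 5 of 11 with a median of 0.00 and no member at an unadjusted p under 0.05. In exercised mice alone without mouse 3 it was 6 of 11 with a median of 0.00. At an unadjusted p under 0.05, 1 was then lower, against 3.15% lower of all tested probe sets. Without mice 3 and 6 it was 3 of 11 in exercised mice, with a median of -0.06 and 2 lower at this threshold. The share of all tested probe sets lower was not counted for that setting and was 3.49% with all mice. Over both states in series 24 it was 10 of 11 with a median of 0.17, against 5 of 11 with a median of -0.04 in series 27.

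Targets of the same receptors outside the set gave a similar count with all mice. Of 20 listed, 15 were tested, and 12 were higher and 3 lower over both states, against 51% higher of all tested probe sets. The median was 0.07 and the lowest difference -0.21. At an unadjusted p under 0.05, 3 were higher and 0 lower, against 2.21% and 2.48% of all tested probe sets. This list was not counted again without exercised control mice 3 and 6, without which the count inside the set was 5 of 11. The carboxylesterase Ces2a, an enzyme that hydrolyses ester drugs, differed by 0.30 (95% interval 0.14 to 0.45, unadjusted p = 0.000393, adjusted p = 0.999 from limma). Its values were 8.12, 8.56 and 8.82 in exercised vitamin E-supplemented mice against 7.38, 8.33 and 8.55 in exercised control mice, and 8.34, 8.51 and 8.77 in sedentary vitamin E-supplemented mice against 7.86, 8.25 and 8.44 in sedentary control mice. Every sedentary supplemented mouse lay above the median of the sedentary control mice, and the median of the exercised supplemented mice lay above every exercised control mouse. Ces2a differed by 0.26 without exercised control mouse 3 (p = 0.000404), 0.34 in series 24 and 0.23 in series 27. The organic anion transporter Slco1a4 differed by 0.45 (p = 0.00581), and the lipogenic regulator Thrsp by 0.18 (p = 0.0463). The Slco1a4 difference was 0.37 without exercised control mouse 3 (unadjusted limma p = 0.00779), 0.29 in series 24 (p = 0.223) and 0.67 in series 27 (p = 0.000699).

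In exercised mice 3 members were higher at an unadjusted p under 0.05 and 0 lower, against 2.12% higher and 3.49% lower of all tested probe sets. Besides Cyp3a11 these were Cyp2r1, a vitamin D hydroxylase of the liver, and Ugt2b1, an abundant UDP-glucuronosyltransferase. Cyp2r1 had 5.52, 6.03 and 6.39 in exercised vitamin E-supplemented mice and 5.25, 5.80 and 5.92 in exercised control mice. The difference was 0.28 (95% interval 0.09 to 0.47, p = 0.00416, adjusted p = 0.765), and it was 0.30 without exercised control mouse 3 (p = 0.00302) and 0.28 in each number series. Ugt2b1 had 10.78, 10.88 and 11.06 in exercised vitamin E-supplemented mice and 9.88, 10.79 and 11.04 in exercised control mice, a difference of 0.21 (p = 0.0188). The lowest Ugt2b1 value belonged to exercised control mouse 3, and without this mouse the difference was 0.13 (p = 0.0568). Without it, Cyp2a5 differed by -0.34 (p = 0.0233), against -0.19 with all mice, and the female-predominant P450 Cyp2b9, which was singled out by this value, by -1.15 (p = 0.0378, against p = 0.0634 with all mice), and the median of the members was -0.02 in place of 0.01.

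In sedentary mice 4 members were higher at an unadjusted p under 0.05 and 0 lower, against 2.8% and 1.97% of all tested probe sets. Along with Cyp2c29 and Cyp2c55 these were Cyp3a59, a further Cyp3a gene, and Ugt2b37. Ugt2b37 had 2.80, 3.36 and 5.96 in sedentary vitamin E-supplemented mice and 1.79, 2.56 and 4.59 in sedentary control mice, a difference of 0.82 (p = 0.0398), and 1.99, 2.91 and 4.63 in exercised vitamin E-supplemented mice against 1.48, 2.42 and 4.00 in exercised control mice, a difference of 0.55 (p = 0.127). Over both states it differed by 0.68 (95% interval 0.16 to 1.21, p = 0.0122, adjusted p = 0.999), which was 0.55 without sedentary vitamin E-supplemented mouse 8, the highest. Cyp3a59 differed by 0.47 in sedentary mice (p = 0.0388) and by 0.11 in exercised mice (p = 0.578). The median of the members was 0.05 against 0.02 for all tested probe sets.

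By family, the median over both states was 0.05 for 7 Cyp2d members, 0.07 for 11 Cyp2c members, 0.17 for 4 Cyp3a members, 0.03 for 7 Ugt2b members, 0.09 for 5 Sult1 members, -0.08 for 4 Cyp2a members and -0.32 for both Cyp2b members. Sult1c2, which came up by its value and not by the rule for named genes, had 2.95, 4.15 and 5.46 in exercised vitamin E-supplemented mice, 2.29, 3.65 and 4.81 in exercised control mice, 3.85, 4.43 and 4.99 in sedentary vitamin E-supplemented mice and 3.53, 3.87 and 4.77 in sedentary control mice, a difference of 0.37 over both states (p = 0.0257). Several abundant enzymes of the liver had narrow intervals that include 0. Cyp2e1, which oxidises ethanol, differed by -0.01 (95% interval -0.07 to 0.04), Cyp1a2, the caffeine demethylase and an AHR target, by 0.02 (-0.08 to 0.12), Cyp2d26 by 0.01 (-0.05 to 0.07) and Cyp2f2, which oxidises naphthalene, by 0.07 (-0.03 to 0.18). Members of the Cyp2c, Cyp2d, Cyp3a and Ugt2b clusters are close in sequence, so a probe set named for 1 gene can also catch RNA of its neighbours.

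Of 16 genes listed as higher in female than in male mouse liver, 14 were members and 3 were tested (Cyp2a4, Cyp2b9 and Cyp2c69), and all 3 were lower on the vitamin E diet over both states. Cyp2a4 had 3.91, 4.50 and 5.26 in exercised vitamin E-supplemented mice and 4.17, 5.01 and 5.89 in exercised control mice, and 3.73, 4.45 and 4.91 in sedentary vitamin E-supplemented mice against 3.40, 4.48 and 7.91 in sedentary control mice. The difference was -0.41 (95% interval -0.82 to -0.01, p = 0.0467, adjusted p = 0.999). It was -0.24 without sedentary control mouse 4, which had the value of 7.91 (p = 0.0813).

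**Figure D3:**
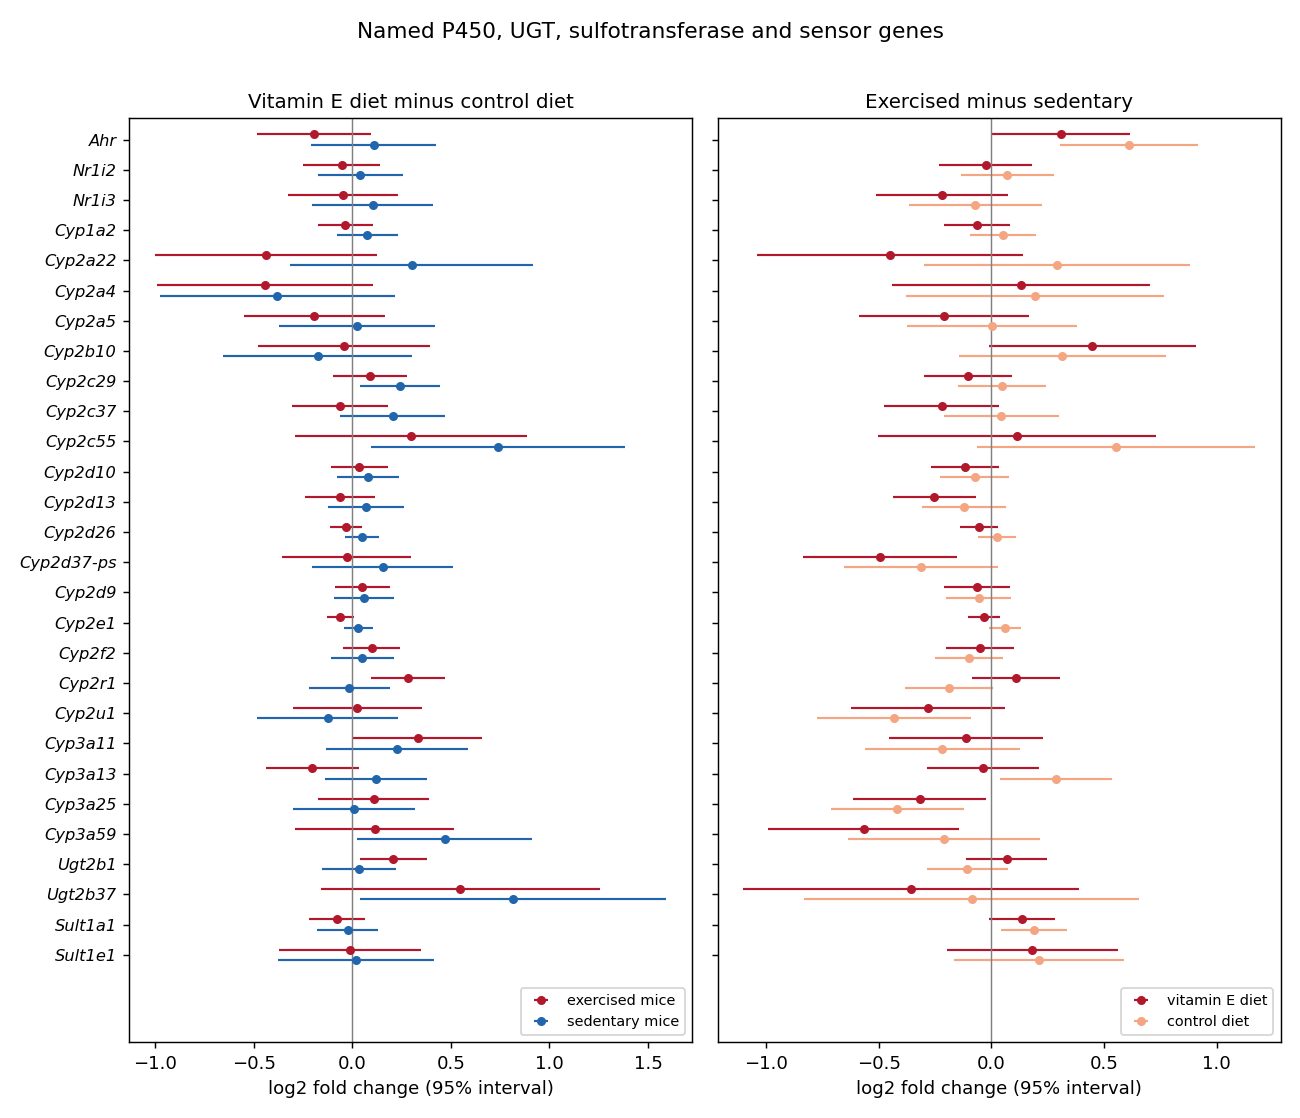
Log2 fold changes with 95% intervals (horizontal axes) of the tested members named by rule (rows), for the vitamin E diet against the control diet in exercised and sedentary mice (left) and for exercised against sedentary mice on either diet (right). Most intervals include 0, and the Ahr interval after exercise on the control diet lies farthest to the right of 0 among the sensors.

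The interaction compares the exercise responses of the 2 diets. No probe set passed the adjusted threshold, and at an unadjusted p under 0.05 there was 1 member higher and 0 lower, against 1.78% and 3.7% of all tested probe sets. The member was Cyp2r1, with an interaction of 0.30 (95% interval 0.02 to 0.57, p = 0.0372, adjusted p = 0.9 from limma). Exercised mice differed from sedentary mice by 0.11 on the vitamin E diet and by -0.19 on the control diet. Without exercised control mouse 3, Cyp2c37, Cyp2a22 and Cyp1a2 also had an unadjusted p under 0.05, with interactions of -0.37, -0.83 and -0.17. Of all tested probe sets 3.71% were then lower at this threshold, and the median of the members was -0.09 in place of -0.05.

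Exercise raised 1 member. Ahr, the sensor of aryl hydrocarbons, rose by 0.46 over both diets, a 1.38-fold increase (95% interval 0.24 to 0.68, adjusted p = 0.0140 from limma). At this threshold exercise over both diets had 1 member higher and 0 lower, against 0.961% and 0.232% of all tested probe sets. On the control diet Ahr had 6.11, 7.04 and 7.31 in exercised mice and 5.64, 6.40 and 6.82 in sedentary mice, a rise of 0.61 (95% interval 0.31 to 0.92, adjusted p = 0.0401). On the vitamin E diet it had 6.18, 6.78 and 7.14 in exercised mice and 5.57, 6.39 and 7.01 in sedentary mice, a difference of 0.31 (unadjusted p = 0.0479, adjusted p = 0.803). The groups overlapped on both diets, and 8 of 12 exercised control mice lay above the highest sedentary control mouse. The difference between the diets in this response was -0.30 (interaction p = 0.165), so the responses were not shown to differ.

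The Ahr rise over both diets did not rest on a single mouse. Over 44 repeats, each without a mouse, it ranged between 0.41 and 0.50, with adjusted limma p-values up to 0.0273, and it was 0.39 in series 24 (unadjusted p = 0.0315) and 0.51 in series 27 (p = 3.94e-05). The call on the control diet alone was less firm. Its adjusted p was above 0.05 in 13 of the 44 repeats, among them the repeat without exercised control mouse 3 (0.60, adjusted p = 0.0585), with a highest value of 0.101. At the adjusted threshold the control diet had 1 member higher and 0 lower, against 0.599% and 0.081% of all tested probe sets, and the vitamin E diet 0 and 0, against 0.2% and 0.0324%.

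Of the 3 AHR targets that were tested, 1 rose after exercise. Cyp1a2 differed by -0.01 after exercise over both diets (95% interval -0.11 to 0.10), and Cyp1a1 was below the filter, with medians from 1.13 to 1.30 in the 4 groups. Nqo1, a quinone reductase outside the set, differed by 0.01 (p = 0.933). Tiparp, an ADP-ribosyltransferase that AHR induces and that other stimuli also raise, rose by 0.68 over both diets (95% interval 0.43 to 0.93, adjusted p = 0.000748). It had 3.70, 4.48 and 5.28 in exercised vitamin E-supplemented mice, 3.83, 4.49 and 5.61 in exercised control mice, 3.85, 4.10 and 4.62 in sedentary vitamin E-supplemented mice and 3.19, 3.68 and 4.03 in sedentary control mice. The rise was 1.01 on the control diet (adjusted p = 0.000877), against a difference of 0.35 on the vitamin E diet (unadjusted p = 0.0551), with an interaction of -0.66 (unadjusted p = 0.0119, adjusted p = 0.868). The diets differed in Tiparp mainly in sedentary mice, by 0.49 (unadjusted limma p = 0.0109, adjusted p = 0.905), against -0.17 in exercised mice (p = 0.333). In sedentary mice 3 of 3 tested AHR targets were higher on the vitamin E diet, with a median of 0.39. Of these, 2 had an unadjusted p under 0.05, against 2.8% higher of all tested probe sets. In exercised mice 1 of 3 was higher and 0 had such a p.

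Below the adjusted threshold, exercise over both diets had 3 members higher and 5 lower at an unadjusted p under 0.05, against 5.12% and 4.14% of all tested probe sets. Higher besides Ahr were Sult1a1, the main phenol sulfotransferase, and Cyp2b10. Sult1a1 had 9.26, 9.46 and 9.66 in exercised vitamin E-supplemented mice against 9.12, 9.30 and 9.53 in sedentary vitamin E-supplemented mice, and 9.30, 9.53 and 9.85 in exercised control mice against 9.02, 9.35 and 9.59 in sedentary control mice, a difference of 0.16 (95% interval 0.06 to 0.27, p = 0.00289, adjusted p = 0.146). Cyp2b10 differed by 0.38 (p = 0.0225), with exercised vitamin E-supplemented mice 1, 4 and 9 (2.63, 2.78 and 2.60) and exercised control mice 4, 9 and 10 (3.02, 3.45 and 3.16) above every sedentary mouse. Cyp2b10 passed the expression filter only through exercised control mice, with a linear group mean of 4.53. The filter therefore favoured a rise after exercise, and the place of Cyp2b10 among the higher members is no finding about this gene.

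The 5 lower members were Cyp3a25, Cyp3a59, the transcribed pseudogenes Cyp2d13 and Cyp2d37-ps, and Cyp2u1, a hydroxylase of long-chain fatty acids. Cyp3a25 had 4.61, 5.15 and 5.74 in exercised vitamin E-supplemented mice against 4.91, 5.45 and 6.38 in sedentary vitamin E-supplemented mice, and 4.19, 5.09 and 5.51 in exercised control mice against 4.96, 5.44 and 6.00 in sedentary control mice. The medians were lower in exercised mice on both diets while the ranges overlapped, and the difference was -0.37 (95% interval -0.58 to -0.16, p = 0.000945, adjusted p = 0.0663). It was -0.58 in series 24 (p = 0.000319) and -0.11 in series 27 (p = 0.393). Cyp2d37-ps differed by -0.40 (p = 0.00169, adjusted p = 0.102), Cyp2u1 by -0.36 (p = 0.00498), Cyp2d13 by -0.19 (p = 0.00617) and Cyp3a59 by -0.39 (p = 0.0127). Of the 11 tested PXR and CAR targets, 3 were higher and 8 lower, with a median of -0.05, which was -0.01 without exercised control mouse 3. Over all 55 members 38 were lower after exercise (69.1%), against 51.1% of all tested probe sets. Without exercised control mouse 3, 20 of 55 were higher, against 17 with all mice. On the control diet alone 29 of 55 were higher without this mouse, against 24 with all mice. By family, 7 of 7 Cyp2d members were lower (unadjusted p under 0.05 for 2), and so were 3 of 4 Cyp3a members (for 2), none of them called, while Cyp3a13 differed by 0.13. Without exercised control mice 3 and 6 these counts stayed at 7 of 7 and 3 of 4. On the control diet alone 6 of 7 Cyp2d members were lower with all mice and 4 of 7 without these 2 mice.

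**Figure D4:**
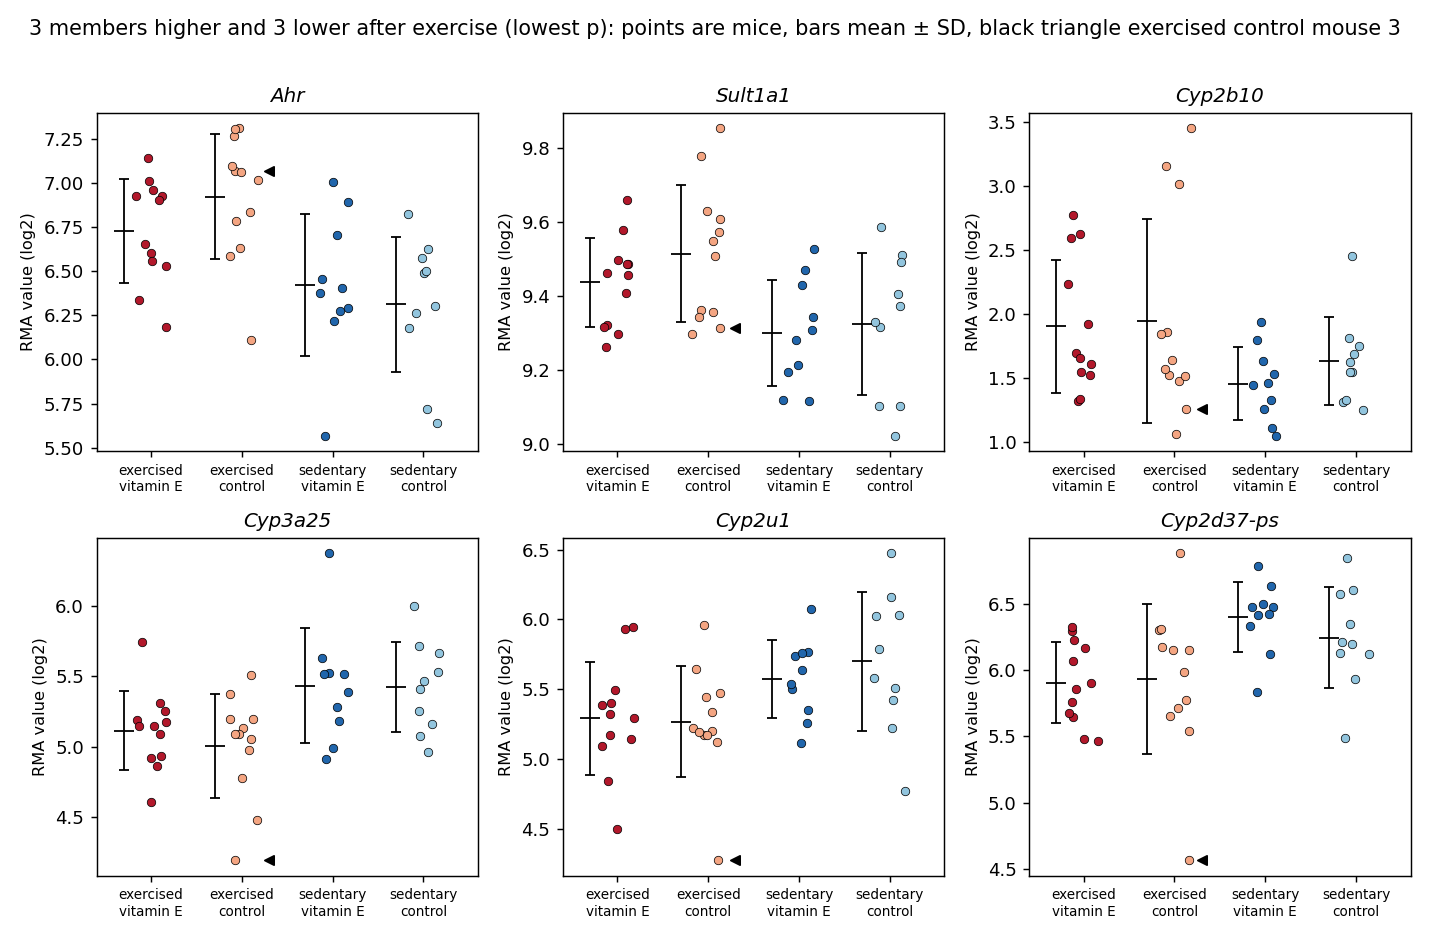
RMA log2 values of the 3 members higher (Ahr, Sult1a1, Cyp2b10) and 3 lower (Cyp3a25, Cyp2u1, Cyp2d37-ps) after exercise with the lowest unadjusted p over both diets, in each of 44 mice (points), with group mean ± SD (bars) and exercised control mouse 3 marked by a black triangle. Ahr sits higher in both exercised groups than in the sedentary groups, with overlapping ranges. Cyp2b10 passed the expression filter only through exercised control mice.

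Between the single diets, Ahr and Cyp3a25 were the members at an unadjusted p under 0.05 on both. The control diet had 3 members higher (Ahr, Sult1a1 and Cyp3a13) and 2 lower (Cyp3a25 and Cyp2u1) at an unadjusted p under 0.05, against 5.96% and 3.44% of all tested probe sets. The vitamin E diet had 1 higher (Ahr) and 4 lower (Cyp2d37-ps, Cyp2d13, Cyp3a59 and Cyp3a25), against 2.71% and 3.45%. The median of the members was -0.03 on the control diet and -0.05 on the vitamin E diet, against 0.02 and -0.02 for all tested probe sets. Without exercised control mouse 3 the control diet gave a median of 0.01. In each comparison of a pair of groups, 0 of the 55 members separated the groups without overlap. Of all tested probe sets 0% did so for vitamin E in exercised mice and 0% in sedentary mice, and 0.0486% and 0.0378% for exercise on the vitamin E diet and on the control diet.

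Levels of markers of other cells and of acute-phase genes were compared between the same groups. No Kupffer cell, macrophage or endothelial marker and no acute-phase gene passed the adjusted threshold in any comparison. Of 8 Kupffer cell and macrophage markers, 0 were higher after exercise on the vitamin E diet and 8 on the control diet, with medians of -0.28 and 0.33. At an unadjusted p under 0.05, 1 was lower on the vitamin E diet, against 3.45% of all tested probe sets, and 0 differed on the control diet. Their mean level ranged from 3.91 to 5.77 in exercised vitamin E-supplemented mice, 3.94 to 6.21 in exercised control mice, 3.72 to 6.10 in sedentary vitamin E-supplemented mice and 3.52 to 5.13 in sedentary control mice. In the comparisons of the diets they were higher on the vitamin E diet for 0 of 8 in exercised mice and 8 of 8 in sedentary mice, with medians of -0.11 and 0.49. At an unadjusted p under 0.05 it was 0 in exercised mice and 2 higher in sedentary mice, against 2.8% higher of all tested probe sets in sedentary mice. Without exercised control mice 3 and 6, 5 of 8 were higher on the vitamin E diet in exercised mice, with a median of 0.10. Of 4 endothelial markers, 3 were higher and 1 lower after exercise on the control diet, with 2 higher at an unadjusted p under 0.05. On the vitamin E diet in sedentary mice 3 were likewise higher and 1 lower, with 2 higher at this threshold. The shares of all tested probe sets higher were 5.96% and 2.8%. After exercise on the vitamin E diet 0 of 4 were higher, and for vitamin E in exercised mice 1 of 4, none of them at this threshold.

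Of 11 acute-phase genes, 3 were higher after exercise on the vitamin E diet and 11 on the control diet, with medians of -0.03 and 0.20. At an unadjusted p under 0.05, 0 and 1 of them were higher, against 2.71% and 5.96% of all tested probe sets. The median on the control diet was 0.12 without exercised control mouse 3 and 0.02 without exercised control mice 3 and 6. For vitamin E in exercised mice 0 of 11 were higher, with a median of -0.21, which was -0.15 without mouse 3 and -0.05 without both mice. With all mice, 2 of 11 were lower there at an unadjusted p under 0.05, against 3.49% of all tested probe sets. In sedentary mice 8 of 11 were higher on the vitamin E diet, with a median of 0.04. The Kupffer median after exercise on the control diet was 0.13 without both mice. The part of these cells and genes in the member levels was not tested. The clock-controlled repressor Nfil3 rose by 0.76 after exercise over both diets (adjusted p = 0.0369).

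The members differed widely in how far mice of a group lay apart. The median within-group SD was 0.31 over the 55 members and 0.33 over all tested probe sets. Cyp2b9 had the largest spread, an SD of 1.33, with values between 1.59 and 7.16 over the 44 mice, and Ugt2b38 (0.95), Ugt2b37 (0.88) and Cyp2c55 (0.73) came next. The first pair were named for this spread after it was seen. By contrast Cyp2e1 stayed between 11.53 and 11.80 in all mice.

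Across mice, the level of CAR went with that of some of its listed targets. Deviations from the group means were related for Nr1i2 and Nr1i3 with each of 11 tested PXR and CAR targets and for Ahr with 3 AHR targets, 25 relations in all over 44 mice, with two-sided p-values from 100000 permutations of mice within groups. Nr1i3 and Cyp2c54, an arachidonic acid epoxygenase of the Cyp2c cluster, were related most closely, with Pearson's r = 0.81 (permutation p = 1e-05, the smallest that 100000 permutations can give, adjusted p = 0.00025) and Spearman's rho = 0.67 (p = 1e-05, adjusted p = 0.00025). Without the 2 mice farthest from the median of Nr1i3, exercised control mice 3 and 2, r was 0.65, and it was 0.81 in series 24 and 0.67 in series 27. Cyp2c37, a close neighbour of Cyp2c54, gave r = 0.70 (adjusted permutation p = 0.00262) and rho = 0.54 (adjusted p = 0.00425), with r = 0.46 without those 2 mice and 0.70 and 0.60 in the 2 series.

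In all, 6 of the 25 relations had an adjusted Pearson p under 0.05, and 5 of these kept their sign and more than 0.5 of their r without the 2 farthest mice. Nr1i3 and Ugt2b35, a UDP-glucuronosyltransferase, gave r = 0.48 (adjusted permutation p = 0.0112) and rho = 0.39 (adjusted p = 0.0508), with r = 0.28 without those mice and 0.39 and 0.60 in series 24 and 27. Cyp2c50 gave r = 0.64 (adjusted permutation p = 0.0142) and rho = 0.59, with r = 0.36 without the 2 farthest mice and 0.28 in series 27. Nr1i3 and Cyp2a5 gave r = 0.53 (adjusted permutation p = 0.0327), which was 0.17 without these mice, so this relation rests on them. Cyp3a11 and Cyp2c29 showed no relation past the adjusted threshold with Nr1i3 (r = 0.27 and 0.26, and -0.03 and 0.08 without these mice) or with Nr1i2 (r = 0.30 and 0.02). No relation of Nr1i2 passed the adjusted threshold. Ahr was related to Nqo1 (r = 0.44, adjusted permutation p = 0.0181, rho = 0.46, and r = 0.31 without the 2 mice farthest in Ahr, sedentary vitamin E-supplemented mouse 4 and exercised control mouse 2), with r = 0.26 in series 24 and 0.59 in series 27, and its r was 0.02 with Cyp1a2 and 0.15 with Tiparp. The points share the array and the tissue piece, and the close Cyp2c genes can share signal.

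**Figure D5:**
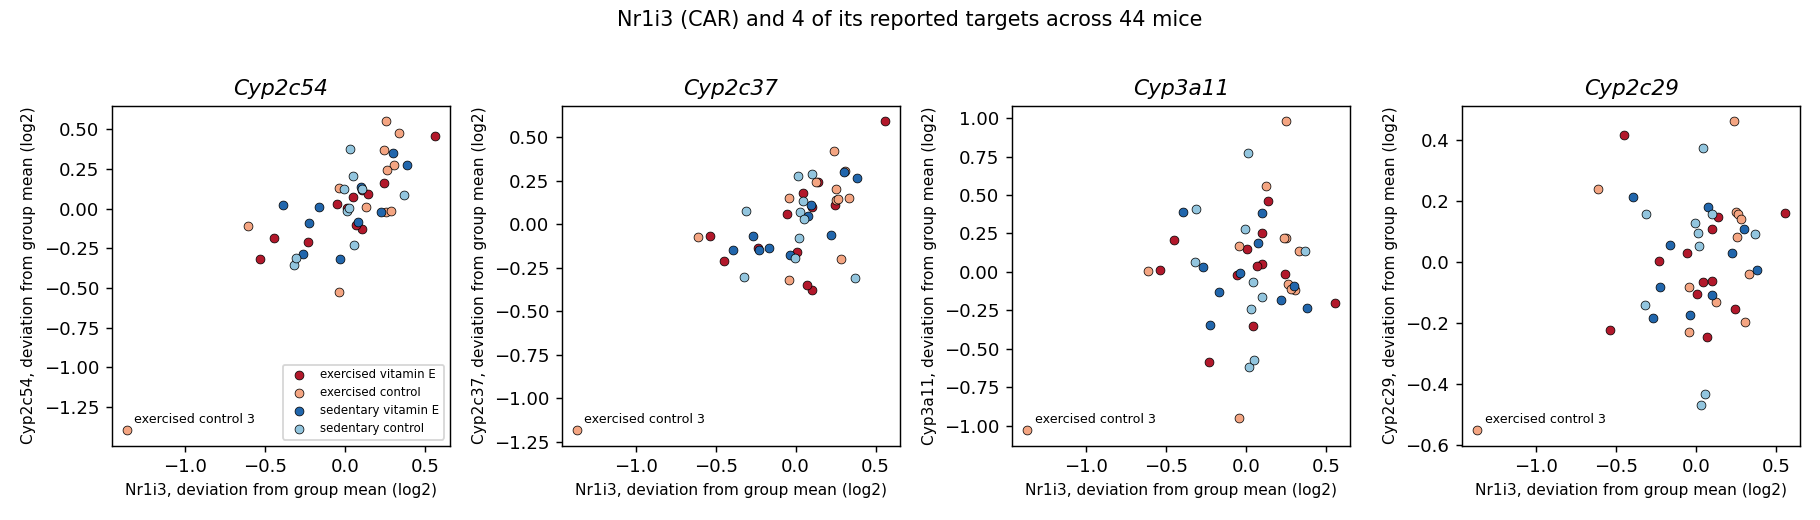
Deviation from the group mean (log2) of Cyp2c54, Cyp2c37, Cyp3a11 and Cyp2c29 (vertical axes) against that of Nr1i3 (horizontal axes), 1 point per mouse, coloured by group. Exercised control mouse 3 lies at the lower left of every panel, and the relation seen for Cyp2c54 without it (r = 0.65) is not seen for Cyp3a11.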

How the data were processed

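Liver RNA of 44 mice was hybridised by the authors to Mouse Gene 2.1 ST arrays. The authors deposited 1 table of log2 values, made with RMA in Affymetrix Expression Console (background correction, quantile normalisation and summary per probe set), so each level is relative to the other arrays and differences of dim probe sets are compressed. It was used as it stands. Of 41345 probe sets, 25341 have a gene symbol in the array annotation and 1820 of these have several. Probe sets were kept for testing where the mean linear value exceeded 4 in at least 1 group, which left 18522, whatever their annotation. A linear model with the 4 groups was fitted to all of them with limma 3.58.1 in R 4.3.3 (empirical Bayes), with contrasts for vitamin E in exercised mice, in sedentary mice and over both states, for exercise on each diet and over both, and for the interaction. P-values were adjusted over the 18522 probe sets by Benjamini-Hochberg, and the threshold was 0.05.

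Intervals cover 95%. Samples were grouped by the diet and activity in the labels. The replicates are separate animals, and nothing in the labels pairs them across groups. The genes named in the text were the sensors, the canonical receptor targets, Cyp2e1, Cyp2f2 and Cyp2d9, every called member, the 3 members with the lowest unadjusted p under 0.05 in each direction of a comparison, and the 5 most and 3 least abundant tested members. Others were named after their values were seen. The members and lists were chosen with earlier results of these data known. The alternatives were no filter or a stricter one, quantile normalisation, centred medians, array weights, a trended robust prior, all probe sets of a gene averaged, the number series or the replicate number as a block, each series alone, only the compared groups, and each mouse left out. Promoter sequences were taken from RefSeq (GRCm38.p6). The fitting steps were tested on simulated data. Sequences of the array probes were not analysed here.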

Additional observations from a re-analysis of the deposited data

Results flagged for a closer look

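In 7 of 56 tests of the most extreme mouse of a sedentary group, a mouse lay farther from the rest than Dixon's 95% limit, and chance gives about 1 in 20. Among sedentary control mice, mouse 4 had a Cyp2a4 value of 7.91 against 3.40 to 5.13 in the others, mouse 2 a Cyp2b10 value of 2.457 against 1.25 to 1.82, and mouse 6 a Cyp2e1 value of 11.529 against 11.64 to 11.69. Among sedentary vitamin E-supplemented mice, mouse 1 had a Cyp3a13 value of 8.109 against 6.95 to 7.305, and it was also the mouse with the highest acute-phase mean of its group. In the same group mouse 5 had a Cyp3a25 value of 6.375 against 4.91 to 5.63, mouse 2 a Sult1e1 value (an estrogen sulfotransferase) of 2.903 against 1.53 to 2.185, and mouse 8 a Ugt2b37 value of 5.957 against 2.80 to 3.81. The 7 values belong to 7 genes and 7 mice. The exercised groups, with 12 mice each, were not tested in this way.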

How the results depend on the processing

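No member passed the adjusted threshold for vitamin E or for the interaction under any alternative run. For exercise on the control diet 1 member was called (Ahr), and 0 without a filter (adjusted limma p of Ahr 0.0811), with quantile normalisation (0.0640), in number series 24 alone (0.585), in series 27 alone (0.0963), with only the compared groups fitted (0.0993) and without exercised control mice 3 and 6 (0.12). It was also 0 without these 2 mice and sedentary vitamin E-supplemented mouse 1 (0.112), an alternative chosen after seeing the data. With each mouse left out in turn it was 0 to 1. For exercise over both diets 1 member was called, and 2 with the filter set at a mean log2 value above 5 and with a replicate block, where Cyp3a25 joined Ahr with adjusted p-values of 0.0388 and 0.0226, and 0 in series 24 alone. With each mouse left out it was 1 to 2. The replicate block changed no other call. The median correlation of same-numbered mice ran from -0.00 to 0.048 over the 6 pairs of groups, with a lowest value of -0.065. Between the exercised groups all 12 were above 0 (lowest 0.021, median 0.048), and 5 of 12 mice correlated best with their own number. Nothing in the labels pairs the numbers. Same-numbered mice of the exercised groups also shared their number series, so a same-number correlation and a shared series were not told apart. The number of members at an unadjusted p under 0.05 ranged with mice left out from 1 to 4 for vitamin E in sedentary mice, 3 to 7 for exercise on the vitamin E diet, 4 to 8 for exercise on the control diet and 0 to 4 for the interaction. For vitamin E over both states it was 1 without exercised control mice 3 and 6, and 2 in series 27 alone and with the stricter filter.

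Small differences changed sign for vitamin E over both states. Array weights gave -0.0013 for Nr1i3 and -0.030 for Sult1e1, and series 24 alone gave 0.10 for Cyp2b10. Series 27 alone gave 0.096 for Nr1i2, -0.033 for Nr1i3, -0.046 for Cyp2c37, -0.053 for Cyp1a2, -0.16 for Sult1e1, -0.016 for Cyp2f2 and -0.030 for Cyp2d9. Without exercised control mice 3 and 6, Nr1i3 was -0.042, Cyp2c37 -0.0036, Cyp1a2 -0.010 and Sult1e1 -0.0041, and also without sedentary vitamin E-supplemented mouse 1 they were -0.058, -0.020, -0.020 and -0.015. With each mouse left out, the range was -0.081 to 0.0036 for Ahr, -0.0091 to 0.036 for Cyp1a2, -0.036 to 0.013 for Nr1i2, -0.033 to 0.053 for Nr1i3 and -0.046 to 0.048 for Sult1e1. Why these values moved was not tested. Dim members such as Cyp2b10 and Sult1e1 lie near background, which limits what the arrays can show for them.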

Other observations

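The 6 probe sets that the annotation gives to several members were left out of every count of members above. The Ugt1a cluster, whose enzymes glucuronidate bilirubin and phenols, was measured by 2 such probe sets, which differed by 0.06 (unadjusted limma p = 0.147) and 0.02 (p = 0.643) on the vitamin E diet over both states. The probe set of Cyp2c67 and Cyp2c68 differed by 0.06 (p = 0.459). Of 2 genes with a second probe set that passed the filter, Cyp2f2 differed by 0.07 on its brighter and 0.02 on its dimmer probe set.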
